A study of Mus musculus with 10 samples.

Results

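The integrated stress response genes described here are Atf4, Atf5, Ddit3, Trib3, Asns, Chac1, Psat1, Ppp1r15a and Sesn2, taken by their symbols from a table of 21956 genes. All 9 passed the filter on low counts, as did 13404 genes of the whole table. Ddit3 appears in 2 rows. The row ENSMUSG00000025408 holds 1993 estimated counts over all libraries and is used here, while the second row, ENSMUSG00000116429, is listed at 0 in every library. The GENCODE M21 annotation places both on overlapping loci, so reads of the pair may not have been separable. The libraries are poly(A) RNA of gastrocnemius, a large calf muscle, from WT mice. There were 5 libraries labelled HLI and 5 labelled Sham, both without any other allele or agent named. The abbreviation HLI is read as hindlimb ischaemia although no label writes it in full, and neither a time after surgery nor an age is given. Nothing in the labels says that libraries of a group came from separate mice, so p-values measure the spread between these libraries, which may be technical.

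The integrated stress response is the programme that cells start when a kinase phosphorylates the translation factor eIF2α, during amino acid shortage, endoplasmic reticulum stress, mitochondrial stress, haem shortage or viral infection. General protein synthesis then slows, whereas the messages of ATF4, ATF5, CHOP and GADD34 are translated better because of short open reading frames ahead of their coding sequence. ATF4 and CHOP in turn activate genes of amino acid synthesis, glutathione breakdown and feedback control. The values below are mRNA levels, and translation was not measured.

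ATF4 pairs with C/EBP proteins on composite elements with a core of TGATGNAA, here searched together with the looser TGNTGNAA, which contains it, and with the cyclic AMP response element TGACGTCA. RefSeq promoter sequences of GRCm38.p6, from 250 bases before to 50 bases after a start, were at hand for all 9 genes as 11 promoters, and both strands were searched. The motifs were chosen from what is known of ATF4 and with these promoters at hand. TGATGNAA was found in 3 of the 11 promoters, those of Asns, Chac1 and Trib3, against 3.97% of all 32851 promoters. The looser TGNTGNAA was in 5 of the 11, adding Psat1 and Sesn2, against 14.8% of all promoters. TGACGTCA was in the Ppp1r15a promoter, against 1.79% of all promoters. The single match of Trib3 to TGATGNAA begins 14 bases after its start and is not shown, so its upstream match to TGNTGNAA is. No motif was found in the windows of Atf4, Atf5 and Ddit3. The stretches that hold the matches are shown because these genes are commonly described as 1 programme, which the levels below can be read against. They run 5′ to 3′ on the gene's strand with the match in capitals, which in Chac1 and Sesn2 is on the opposite strand.
Asns, chr6:7693213-7693244, minus strand: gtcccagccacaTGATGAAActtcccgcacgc
Chac1, chr2:119351037-119351068, plus strand: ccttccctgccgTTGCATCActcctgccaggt
Trib3, chr2:152344074-152344105, minus strand: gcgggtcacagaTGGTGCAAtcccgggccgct
Psat1, chr19:15925176-15925207, minus strand: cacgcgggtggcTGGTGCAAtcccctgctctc
Sesn2, chr4:132510655-132510686, minus strand: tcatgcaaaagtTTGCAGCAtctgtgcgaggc
Ppp1r15a, chr7:45526269-45526292, minus strand: ccgcctctccggTGACGTCAgcac

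Total estimated counts ran from 16556385 to 22136299 per library. All 14 mature muscle fibre markers were detected in every library, with a summed level of 62010 to 167200 CPM (counts per 1000000 counts of the scaled library) in HLI and 142700 to 193300 CPM in Sham. The lowest sum was that of HLI replicate 3. All 11 monocyte and macrophage markers were also detected in every library, with summed levels of 853 to 3471 CPM in HLI and 662 to 1657 CPM in Sham. HLI replicates 1 and 3 had the highest macrophage sums, at 3471 and 3150 CPM. Lyz2 weighed most in these sums, with a mean of 954 CPM in HLI and 474 CPM in Sham. In bulk muscle, fewer cells of a type and less RNA per cell cannot be told apart.

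Per gene length, the 9 genes ranged from among the lowest to among the highest tested transcripts of this muscle. Atf4 averaged 157 TPM (transcripts per 1000000, deposited by the authors) over the 10 libraries, above 94.99% of tested genes, and no other gene of the 9 reached its lowest library. Atf5 followed with a mean level of 35.2 TPM and exceeded Ppp1r15a in 10 of 10 libraries. Ppp1r15a and Ddit3, at mean levels of 24.5 and 24.0 TPM, did not differ beyond their spread, Ppp1r15a being the higher in 4 of 10 libraries. Chac1 averaged 14.3 TPM and Psat1 9.81 TPM, and Chac1 was the higher of the pair in 5 of 10 libraries. Asns at 6.42 TPM, Sesn2 at 3.23 TPM and Trib3 at 1.73 TPM, above 11.98% of tested genes, closed the order, each below the gene before it in 10 of 10 libraries. Trib3 rests on 29 to 43 estimated counts per library, the fewest of the 9.

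In HLI against Sham, Atf4, Atf5, Ddit3, Ppp1r15a and Chac1 had HLI means below the Sham means, whereas Trib3, Asns, Psat1 and Sesn2 lay close to Sham or above it. None of the 9 genes passed the test across all genes (quasi-likelihood test of edgeR at an adjusted p under 0.05 by Benjamini and Hochberg), and neither did any other gene, so that the share called was 0%. At an unadjusted p under 0.05 there were 2262 genes, 16.9% of those tested. DESeq2 called 42 genes, 0.32% of those with an adjusted p, and 0 of the 9. Of the 9 genes, 5 had an unadjusted edgeR p under 0.05 with a lower HLI level, against 6.15% of all tested genes, and 0 with a higher level, against 10.7%. The median log2 fold change of the 9 genes was -0.49, beside 0.03 for all tested genes. Of the 9, 6 lay below 0, Trib3 only when libraries were scaled, beside 46.2% of all genes. The 9 genes were chosen with earlier results of these data known. Setting them beside all genes, here or below, is therefore no independent test. Groups of libraries overlapped in every one of the 9 genes, and full separation with HLI below Sham was seen in 0.873% of tested genes, with HLI above Sham in 0.776%.

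**Figure D1:**
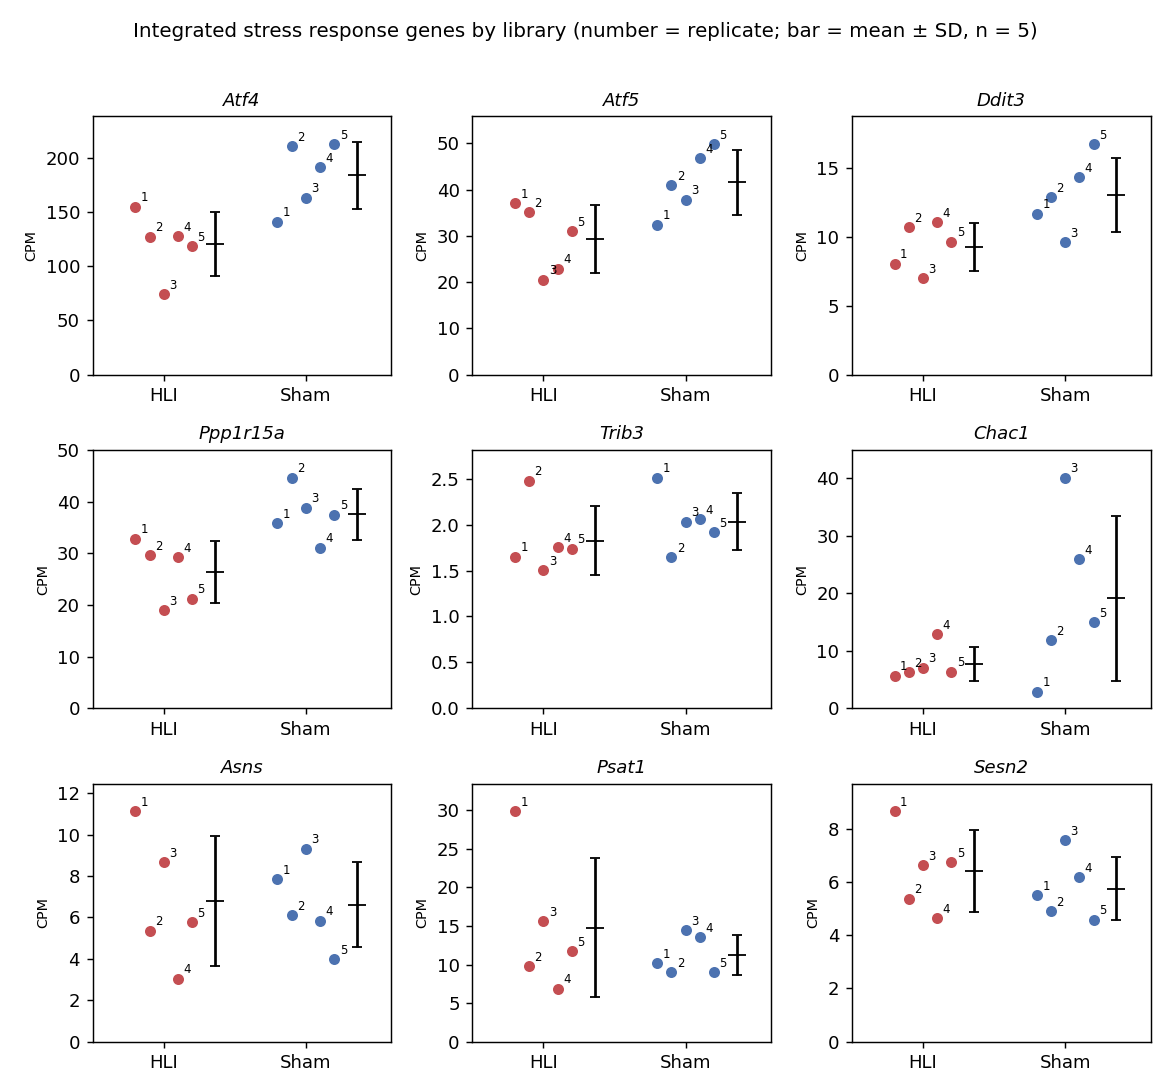
Level of each gene in CPM (vertical axes, from 0) in the 5 HLI and 5 Sham libraries, each point a library marked with its replicate number and each bar the mean ± SD. HLI replicate 3 is the lowest library for Atf4, Atf5, Ddit3, Ppp1r15a and Trib3, and HLI replicate 1 is the highest for Asns, Psat1 and Sesn2.

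Atf4 (ENSMUSG00000042406) encodes the basic leucine zipper factor at the centre of the response. Its level was 155, 127, 74.0, 128 and 119 CPM in HLI replicates 1 to 5, and 141, 211, 163, 192 and 213 CPM in Sham replicates 1 to 5. Thus 4 of 5 HLI libraries lay below every Sham library, a pattern that 7.95% of tested genes showed at this strength or more, and HLI replicate 1 lay within the Sham range. The means were 121 ± 29.4 CPM in HLI and 184 ± 31.2 CPM in Sham (SD, n = 5 each), a ratio of 0.655. The log2 fold change was -0.61 (SE 0.19, edgeR unadjusted p = 0.0070, adjusted p = 0.29), and the exact two-sided permutation p was 0.016, where 0.0079 is the smallest that 5 against 5 libraries can give. Leaving out HLI replicate 3, the library with the lowest Atf4 and the lowest fibre marker sum, gave -0.48.

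Atf5 (ENSMUSG00000038539), a close relative of Atf4 that is known for mitochondrial stress, stood at 37.0, 35.03, 20.5, 22.8 and 31.0 CPM in HLI replicates 1 to 5. In Sham replicates 1 to 5 it stood at 32.4, 40.9, 37.8, 46.8 and 49.8 CPM. In CPM the 3 HLI libraries 3, 4 and 5 were below every Sham library, and HLI replicates 1 and 2 were inside the Sham range. In the deposited TPM HLI replicate 5, at 33.9 TPM, was above the lowest Sham library, at 32.9 TPM. Atf5 had a log2 fold change of -0.50 (SE 0.18, edgeR unadjusted p = 0.016, adjusted p = 0.29, exact permutation p = 0.032).

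Ddit3 encodes CHOP, the factor linked to cell death under prolonged endoplasmic reticulum stress. Ddit3 levels were 8.05, 10.7, 7.01, 11.1 and 9.67 CPM in HLI replicates 1 to 5, and 11.7, 12.9, 9.64, 14.4 and 16.8 CPM in Sham replicates 1 to 5. In CPM only HLI replicates 1 and 3 lay below every Sham library, and Sham replicate 3 lay inside the HLI range, below HLI replicates 2, 4 and 5. In the deposited TPM HLI replicate 3, at 20.51 TPM, was also above Sham replicate 3, at 20.36 TPM. For Ddit3 the log2 fold change was -0.49 (SE 0.18, edgeR unadjusted p = 0.017, adjusted p = 0.29, exact permutation p = 0.040).

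Ppp1r15a (ENSMUSG00000040435) encodes GADD34, the phosphatase subunit that reverses eIF2α phosphorylation. It had 32.8, 29.6, 19.0, 29.2 and 21.2 CPM in HLI replicates 1 to 5, against 35.8, 44.7, 38.9, 31.1 and 37.5 CPM in Sham replicates 1 to 5. As in Atf4, all HLI libraries but replicate 1 were below every Sham library in CPM, a pattern that 7.95% of tested genes showed at this strength or more. In the deposited TPM Atf4 kept this pattern, whereas for Ppp1r15a only HLI replicates 3 and 5 lay below every Sham library. There HLI replicates 2 and 4, at 23.3 and 20.72 TPM, were above the lowest Sham library, at 20.63 TPM. Its log2 fold change was -0.51 (SE 0.16, edgeR unadjusted p = 0.0078, adjusted p = 0.29, exact permutation p = 0.016). The exact permutation p was thus under 0.05 in 4 of the 9 genes, Atf4, Atf5, Ddit3 and Ppp1r15a, all with a lower HLI level. That count was 2 without any 1 of HLI replicate 3 and Sham replicates 2, 4 and 5, and 1 on unscaled TPM. Among all tested genes the share was 13.4%, and 7.17% with a lower HLI level.

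These 4 genes, which are the translationally favoured messages of the response, had log2 fold changes between -0.61 and -0.49. HLI replicate 3 was the lowest library for all 4 in TMM-scaled CPM, where it has the largest scaling factor, 1.23. In the deposited TPM it was the lowest for Atf4 alone, at 101 TPM, and the lowest libraries were HLI replicate 4 for Atf5 at 21.0 TPM, HLI replicate 1 for Ddit3 at 19.0 TPM and HLI replicate 5 for Ppp1r15a at 17.6 TPM. When the TPM were not rescaled, all genes together had a median difference of 0.19 on the log2(TPM + 1) scale, and the differences were -0.43 for Atf4, -0.32 for Atf5, -0.26 for Ddit3 and -0.32 for Ppp1r15a. Less that median they were -0.61, -0.51, -0.45 and -0.51. The 14 fibre markers had a median log2 fold change of -0.50, with 12 of 14 below 0. Fibre marker sums in CPM were lowest in HLI replicate 3 and highest in Sham replicate 5, at 193300 CPM. Sham replicate 5 was the highest library for Atf4, Atf5 and Ddit3 in CPM, and in the deposited TPM for Atf5 and Ddit3. For Atf4 the highest in TPM was Sham replicate 2, at 208 TPM beside 198 TPM in Sham replicate 5. HLI replicate 4 had a fibre sum of 167200 CPM, above Sham replicates 1 and 3 at 145900 and 142700 CPM. Its Atf4, Atf5 and Ppp1r15a levels, at 128, 22.8 and 29.2 CPM, lay below every Sham library, while its Ddit3 level did not. HLI replicate 3 also had the highest sums of newly formed fibre markers, 1423 CPM against 41.5 to 340 CPM in the other 9 libraries, and of fibro-adipogenic progenitor markers, at 15480 CPM, with all 7 markers of each list detected in every library. Col3a1 weighed most in the progenitor sums, with a mean of 5190 CPM in HLI and 2509 CPM in Sham. The part of cell and fibre content in the differences of Atf4, Atf5, Ddit3 and Ppp1r15a was not tested.

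Chac1 (ENSMUSG00000027313) encodes a γ-glutamylcyclotransferase that degrades glutathione and is a sensitive transcript of the ATF4 and CHOP branch. The HLI libraries held 5.62, 6.23, 7.01, 12.9 and 6.36 CPM in replicates 1 to 5, and the Sham libraries held 2.87, 11.8, 40.1, 25.97 and 14.98 CPM. Sham replicate 1 was the lowest of all 10 libraries. Sham replicates 3, 4 and 5 lay above every HLI library, and Sham replicate 2 lay above all of them but HLI replicate 4. The coefficient of variation was 39.1% in HLI and 75.0% in Sham, and the Sham value was the widest of any gene of the 9 in either group. The log2 fold change was -1.33 (SE 0.52, edgeR unadjusted p = 0.025, adjusted p = 0.29), whereas the exact permutation p on the log scale was 0.22. Without Sham replicate 3 the log2 fold change was -0.87, without Sham replicate 1 it was -1.61, and on unscaled log2(TPM + 1) the difference was -0.72, and -0.90 after subtracting the median of all genes.

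Trib3 (ENSMUSG00000032715), which encodes a pseudokinase that restrains ATF4 and CHOP in a feedback loop, ranged from 1.51 to 2.48 CPM in HLI, with a median library of 1.74 CPM, and from 1.65 to 2.52 CPM in Sham, with a median library of 2.04 CPM. The ranges were nearly the same, and 1 library of each group, HLI replicate 2 and Sham replicate 1, stood highest. HLI over Sham gave a log2 fold change of -0.16 (SE 0.23, with an adjusted p of 0.70 by edgeR), and it was 0.021 on unscaled log2(TPM + 1), and -0.16 after subtracting the median of all genes. Without HLI replicate 2 it was -0.29, and without Sham replicate 1 it was -0.069.

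**Figure D2:**
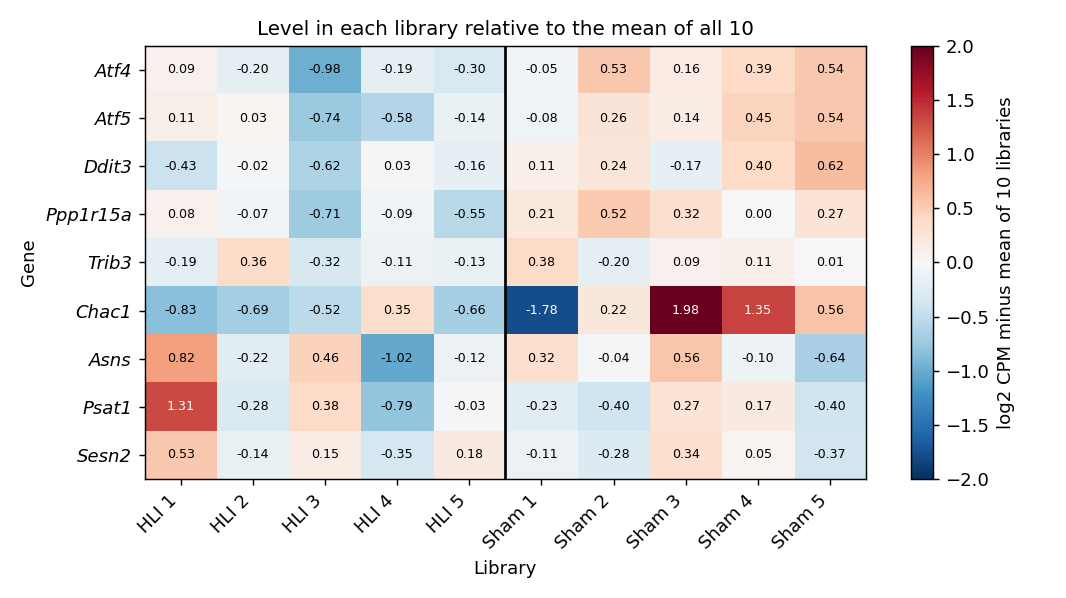
Log2 CPM of each gene (rows) in each library (columns, HLI left of the line and Sham right of it) minus its mean over the 10 libraries, in colour and as numbers. Asns, Psat1 and Sesn2 are high in HLI replicate 1 and Sham replicate 3 and low in HLI replicate 4 and Sham replicate 5, whereas Chac1 reaches 1.98 in Sham replicate 3 and -1.78 in Sham replicate 1.

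The genes of amino acid supply and sensing followed single libraries more than the groups. Asns (ENSMUSG00000029752), which encodes asparagine synthetase, stood at 11.1, 5.37, 8.66, 3.04 and 5.76 CPM in HLI replicates 1 to 5, and at 7.84, 6.10, 9.32, 5.84 and 3.98 CPM in Sham replicates 1 to 5. The highest and the lowest of all 10 libraries were both HLI libraries. Means were 6.79 ± 3.14 CPM in HLI and 6.62 ± 2.04 CPM in Sham (SD, n = 5 each). The log2 fold change was 0.038 (SE 0.32, edgeR adjusted p = 0.95), and it turned to -0.21 without HLI replicate 1, to -0.065 without HLI replicate 3, to -0.011 without Sham replicate 4 and to -0.098 without Sham replicate 5.

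Psat1 (ENSMUSG00000024640) encodes phosphoserine aminotransferase, an enzyme of serine synthesis. It had 29.9, 9.81, 15.6, 6.85 and 11.7 CPM in HLI replicates 1 to 5, and 10.2, 9.01, 14.4, 13.5 and 9.01 CPM in Sham replicates 1 to 5. HLI replicate 1 stood well above the other 9 libraries, and HLI replicate 4 was the lowest of all. Psat1 had a log2 fold change of 0.40 (SE 0.34, with an adjusted p of 0.50 by edgeR and an exact permutation p of 0.60), and without HLI replicate 1 it was -0.027.

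Sesn2 (ENSMUSG00000028893) encodes sestrin 2, a leucine sensor that holds back mTORC1. Its level was 8.65, 5.37, 6.62, 4.63 and 6.74 CPM in HLI replicates 1 to 5, and 5.50, 4.89, 7.56, 6.18 and 4.57 CPM in Sham replicates 1 to 5. HLI replicate 1 and Sham replicate 3 were again the highest of their groups, and the groups overlapped over most of their range. In Sesn2 the log2 fold change was 0.16 (SE 0.20, edgeR adjusted p = 0.66), with 0.024 without HLI replicate 1 and 0.27 without Sham replicate 3.

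HLI replicate 1 was the highest of all libraries for Asns, Psat1 and Sesn2, and it also had the highest macrophage marker sum. HLI replicate 4, the lowest library for Asns and Psat1, had the lowest macrophage sum of the HLI group at 853 CPM. That sum lay within the Sham range. Sham replicate 5, with 662 CPM, was the lowest Sham library for Asns and Sesn2. HLI replicate 3, with a macrophage sum of 3150 CPM, had 15.6 CPM of Psat1, against 29.9 CPM in HLI replicate 1. Its Sesn2, at 6.62 CPM, was below the 6.74 CPM of HLI replicate 5. Sums of the 5 adipocyte markers, all detected in every library, were 16.9 CPM in HLI replicate 4 and 62.6 to 190 CPM in the other libraries. Sham replicate 3 was the highest Sham library for these 3 genes and had a macrophage sum of 1400 CPM, below the 1657 CPM of Sham replicate 1. Neutrophil marker sums, with 7 of 7 markers in the table and 2 of them at 0 in at least 1 library, were 97.2 CPM in HLI replicate 1 and 92.7 CPM in Sham replicate 3, 5.56 to 22.2 CPM in HLI replicates 2 to 5, and 9.54 to 24.0 CPM in Sham replicates 1, 2, 4 and 5. All 6 erythroid markers were detected in every library, and their sums were the highest of each group in the same pair of libraries, at 3084 CPM in HLI replicate 1 and 1195 CPM in Sham replicate 3. Sums of the 7 endothelial markers, all detected in every library, were the lowest of each group there, at 963 CPM in HLI replicate 1 and 873 CPM in Sham replicate 3. The part of these cells in the levels of Asns, Psat1 and Sesn2 was not tested.

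**Figure D3:**
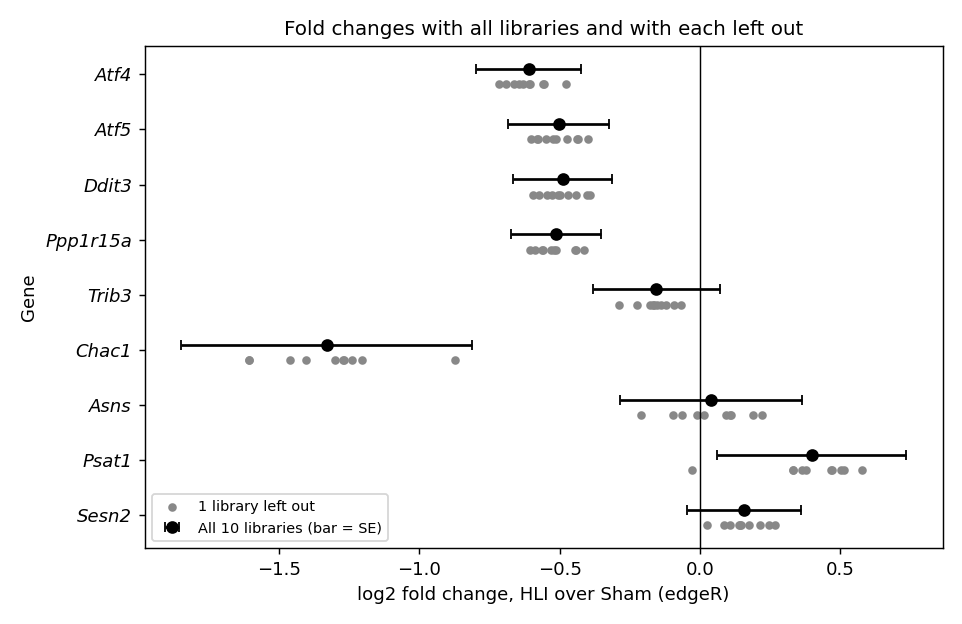
Log2 fold change of HLI over Sham (horizontal axis) for each gene, black with all 10 libraries and its standard error, grey with each library left out in turn. Atf4, Atf5, Ddit3, Ppp1r15a, Chac1 and Trib3 stay below 0 in all 10 fits with a library left out (Trib3 was 0.021 on unscaled TPM), while Asns runs from -0.21 to 0.22 and Psat1 from -0.027 to 0.58.

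The mean of the 9 genes, each relative to its own mean over the libraries, was 0.17 in HLI replicate 1, -0.14 in replicate 2, -0.32 in replicate 3, -0.31 in replicate 4 and -0.21 in replicate 5. In Sham it was -0.14, 0.10, 0.41, 0.31 and 0.13 in replicates 1 to 5. With Chac1 included, HLI replicate 1 thus lay within the Sham range and Sham replicate 1 beside the HLI libraries. These placements lean on Chac1, which stood at -0.83 in HLI replicate 1 and -1.78 in Sham replicate 1. The value of 0.41 in Sham replicate 3 likewise includes the high Chac1 of that library, at 1.98. The distance of a gene from this mean profile, as a root mean square of log2 differences over 10 libraries, was smallest for Atf5 at 0.24 and Ppp1r15a at 0.27, and largest for Chac1 at 0.92, Psat1 at 0.52 and Asns at 0.51. Among 12515 other tested genes with a mean of at least 1 TPM, the 5 with the profile nearest to the mean of the 9 genes were Sumf2, Supt3, Tmem199, Xpnpep3 and E2f4, at distances of 0.12 to 0.13. Their log2 fold changes ran from -0.29 in Sumf2 to -0.12 in E2f4, and none passed the edgeR test.

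Around the 9 genes, the wider pathway was read from 6 lists, and 0 genes of these lists passed the edgeR test. The 4 eIF2α kinase genes, which start the response, had a median log2 fold change of 0.17, with 3 above 0 and 1 below. Eif2ak2, which encodes the double-stranded RNA kinase PKR and is itself induced by interferon, had 14.9 ± 4.53 CPM in HLI and 8.49 ± 2.30 CPM in Sham (SD, n = 5 each), a log2 fold change of 0.81 (SE 0.23, edgeR unadjusted p = 0.0046, adjusted p = 0.29). Eif2ak3, which encodes the endoplasmic reticulum kinase PERK, had 23.5 ± 4.65 CPM in HLI and 18.7 ± 2.46 CPM in Sham (adjusted p = 0.30 by edgeR). The haem-regulated kinase gene Eif2ak1 and the amino acid sensor gene Eif2ak4 (GCN2) had log2 fold changes of -0.16 and 0.020.

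The 14 genes of eIF2, its exchange factor eIF2B and the eIF2α phosphatases had a median of -0.10, with 2 above 0 and 12 below. Eif2b5, the catalytic subunit gene of eIF2B, had 53.5 ± 8.26 CPM in HLI and 67.6 ± 10.6 CPM in Sham, and Eif2b1, a regulatory subunit gene, had 32.5 ± 5.40 CPM in HLI and 39.1 ± 4.47 CPM in Sham (SD, n = 5 each). Their edgeR adjusted p-values were 0.29 and 0.31. Of the 8 genes that relay mitochondrial stress or keep matrix proteins folded, 7 were below 0 and the median was -0.27. Lonp1, a matrix protease gene, had 63.9 ± 9.26 CPM in HLI and 80.2 ± 7.13 CPM in Sham. Dele1, whose protein carries the mitochondrial signal to the kinase HRI, had 59.8 ± 14.4 CPM in HLI and 81.6 ± 13.0 CPM in Sham, and both genes had an edgeR adjusted p of 0.29.

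Among 19 tested genes of amino acid transport, amino acid synthesis and one-carbon metabolism linked to ATF4, 10 were above 0 and 9 below, with a median of 0.015. Pck2, the mitochondrial phosphoenolpyruvate carboxykinase gene, had 19.0 ± 3.83 CPM in HLI and 12.4 ± 3.25 CPM in Sham, whereas the alanine aminotransferase gene Gpt2 had 158 ± 47.8 CPM in HLI and 250.1 ± 51.1 CPM in Sham (edgeR adjusted p = 0.29 for each). Of 16 tested genes otherwise linked to ATF4 or CHOP, 8 were above 0 and 8 below, with a median of 0.011. Ddit4, an mTORC1 inhibitor gene, lay between 6.93 and 28.6 CPM in HLI and between 6.90 and 9.55 CPM in Sham, and Herpud1, a gene of endoplasmic reticulum protein degradation, lay between 58.5 and 138 CPM in HLI and between 113 and 176 CPM in Sham. The 18 tested genes of the ATF6 and IRE1 branches had a median of 0.064, with 11 above 0 and 7 below. Syvn1, the ubiquitin ligase gene of that degradation pathway, lay between 20.7 and 24.1 CPM in HLI and between 24.3 and 29.8 CPM in Sham. Its edgeR adjusted p was 0.29. The groups did not overlap, with HLI below Sham, as in 0.873% of all tested genes. Edem1, which marks misfolded glycoproteins for disposal, lay between 26.1 and 70.0 CPM in HLI and between 24.6 and 45.4 CPM in Sham. Cbs, Slc7a3, Fgf21, Gdf15 and Derl3 did not pass the filter on low counts, with at most 37 estimated counts in any library, reached by Gdf15.

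**Figure D4:**
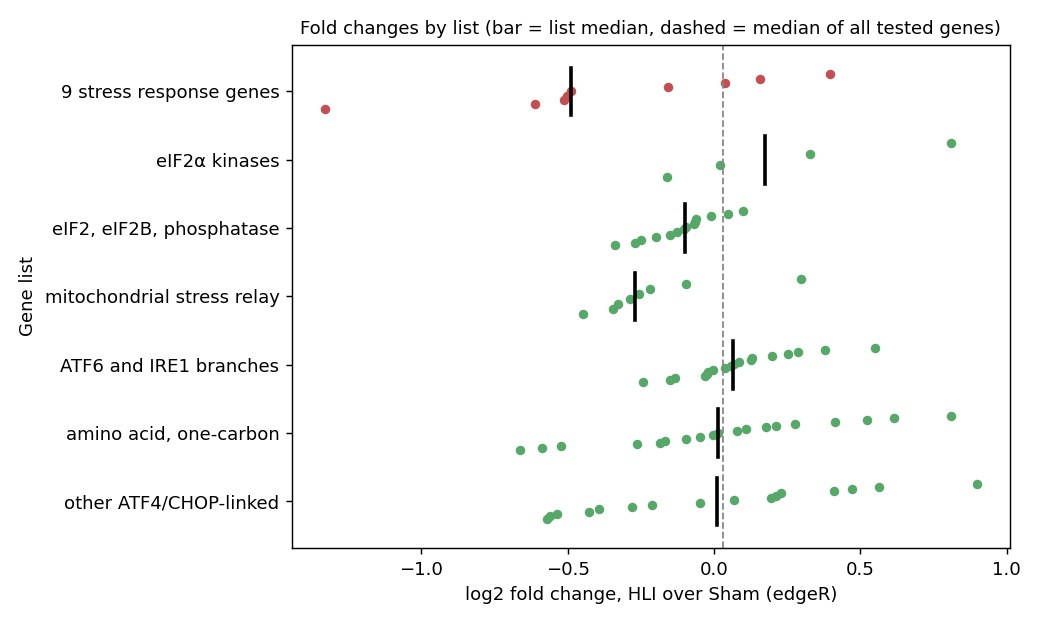
Log2 fold change of HLI over Sham (horizontal axis) of each tested gene in the 9 stress response genes and in 6 pathway lists (rows), with each list's median as a bar and the median of all 13404 tested genes, 0.03, as a dashed line. The median of the 9 genes lies at -0.49 and those of the pathway lists between -0.27 and 0.17.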

How the data were processed

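Poly(A) RNA of 10 gastrocnemius samples was sequenced as paired-end libraries, per the labels' protocols. HISAT2 2.0, Bowtie 0.12.2 and the build mm8 are named in the submitters' processing notes without their roles. Which tool counted the reads, and whether by strand, is not given in the sources used here. The series text and the sample protocol differ on the RNA reagent and the sequencing company, and the protocol mentions adipose material. The authors deposited estimated counts, 93.4% of them whole and not normalized, and TPM values that sum to 1000000 per sample, per the file headers and the values. Counts were rounded, scaled by TMM and tested in R 4.3.3 with edgeR 4.0.16 (filterByExpr, count minimum 10, total minimum 15, no covariate), with Benjamini-Hochberg adjustment over 13404 genes. Log2 CPM used a prior count of 2, and permutation tests used all 252 assignments. The test was checked on simulated counts. Members, lists and motifs were chosen with earlier results of these data known. Named were all 9 members, the 2 genes of each pathway list with the smallest p at a mean of at least 1 TPM, and the 5 genes with the nearest profile. The other eIF2α kinases and the genes under the filter were named after their values were seen. Alternatives were DESeq2 1.42.0, its size factors, no filter, a replicate block, each library left out, and limma 3.58.1 on log2 TPM. Promoters are RefSeq sequences of GRCm38.p6, another build than mm8, matched by symbol.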

Additional observations from a re-analysis of the deposited data

Results flagged for a closer look

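In 18 groups of 5 libraries (9 genes in HLI and in Sham), 2 had a library whose gap to its nearest neighbour exceeded 0.71 of the group's range, Dixon's 95% limit, which chance passes in about 1 in 20 groups. Chac1 stood at 12.9 CPM in HLI replicate 4, with the nearest HLI library at 7.01 CPM. Trib3 stood at 2.48 CPM in HLI replicate 2, with the nearest HLI library at 1.76 CPM, and rests there on 43 estimated counts.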

How the results depend on the processing

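The count of genes called was 0 in every edgeR and limma fit run and 42 with DESeq2, and 0 of the 9 genes were called in any fit. Of 63 comparisons of single genes under the 7 alternatives that keep all libraries, 59 kept their direction. The exceptions were Asns at -0.026 with the replicate block and -0.051 after scaling the TPM by median of ratios, and Trib3 at 0.021 on log2(TPM + 1) and 0.034 on log2(TPM + 0.1). With 1 library left out, Asns ran from -0.21 to 0.22 and Psat1 from -0.027 to 0.58. The exact permutation p was under 0.05 in 4 genes, in 2 to 4 with 1 library left out (2 without HLI replicate 3 or Sham replicates 2, 4 or 5), and in 1 on unscaled TPM with either pseudocount. These permutation alternatives were chosen after seeing the data, and the cause of these moves was not tested. Over all tested genes, no HLI library deviated from its group mean most like the Sham library of the same number. Correlations of same-numbered libraries were -0.0090 to 0.28, so the numbers were not taken as pairs. The block moved the genes with an unadjusted p under 0.05 to 2986, beside 2262 without it. Adjusted p-values of the 5 genes with the smallest p ran from 0.086 to 0.57 with 1 library left out. Trib3 rests on the fewest counts, 29 to 43 per library.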

Other observations

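Of the 16 tested genes otherwise linked to ATF4 or CHOP, 8 lay above 0 and 8 below, with a median log2 fold change of 0.011. With an unadjusted edgeR p under 0.05, 5 stood lower in HLI and 2 higher, beside 6.15% and 10.7% of all tested genes. The following are those not described above, chosen after their values were seen. Sqstm1, the autophagy receptor gene p62, had 425 ± 132 CPM in HLI and 631 ± 117 CPM in Sham. Map1lc3b, which encodes the autophagosome protein LC3B, had 161 ± 18.1 CPM in HLI and 195 ± 17.6 CPM in Sham. Nupr1, a stress-induced chromatin protein gene, had 19.1 ± 4.18 CPM in HLI and 25.1 ± 4.31 CPM in Sham. Stc2, a secreted glycoprotein gene, had 2.59 ± 0.28 CPM in HLI and 3.76 ± 0.83 CPM in Sham. In the other direction Tnfrsf10b, the death receptor gene that CHOP induces in human cells, had 6.67 ± 1.46 CPM in HLI and 4.496 ± 0.98 CPM in Sham (SD, n = 5 in every group). None of these passed the edgeR test (adjusted p of 0.29 for each). The related factor gene Atf3 had 19.7 ± 11.4 CPM in HLI and 14.1 ± 6.19 CPM in Sham (edgeR adjusted p = 0.51).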
